A study of Mus musculus with 27 samples.

Results

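Gusb, Polr2a, Actb, Gapdh, Tbp, Ppia, B2m, Ywhaz and Sdha are 9 widely expressed mouse genes that serve as expression references, of 21430 protein-coding genes measured here. Their members in the methylation data were chosen by position, as every window that overlapped the RefSeq interval of a gene on GRCm38.p6 with 5 kb on either side. Of 444250 nuclear windows measured in all libraries, 72 met that rule. Whole-genome bisulfite sequencing was run on 3 mouse cell lines, as embryonic stem cells in 2i/Lif on D0 and as epiblast-like cells on D1 and D2. TET_KO carries the genotype TET1/2/3_KO, a loss of Tet1, Tet2 and Tet3 together. DNMT_WT is the unedited parent of a line without Dnmt1, Dnmt3a and Dnmt3b, which was not analysed here, and TET_WT is the unedited parent of TET_KO. The 3 lines and 3 days make 9 groups of 3 libraries, 27 in all. All groups share the stem cell medium and the same route to epiblast-like cells, and the labels do not say how many clones stand behind a line.

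Most CpG sites of mammalian DNA are methylated, but short CpG-dense stretches called CpG islands, which hold the promoters of most widely expressed genes, are usually kept free of methylation. The bodies of transcribed genes usually carry methylation. TET enzymes oxidise methylated cytosine and so help to remove it, medium with 2i lowers methylation across the genome of stem cells, and the change to epiblast-like cells brings it back through the DNMT3 enzymes. Bisulfite conversion reads 5-methylcytosine and 5-hydroxymethylcytosine alike.

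The deposited values were percentages of methylation in windows named for 100 CpGs, so that a shorter window is richer in CpG. The windows had a median length of 5058 bp, and the shortest was 192 bp. Of 516 windows under 500 bp that enclosed a whole RefSeq promoter entry, 229 had no room for 100 CpG sites, so the 100 cannot be the number of sites in those. The depth behind a value is unknown. Over all windows the library means lay between 50.9% and 71.8% in TET_KO, between 3.13% and 49.9% in DNMT_WT and between 25% and 55.5% in TET_WT, over the 3 days. Replicate 2 of TET_WT stood apart from the other two on D1 and D2, with a library mean of 31.3% on D1, against 34.3% and 34.2%, and of 55.5% on D2, against 51.6% and 50.5%. Expression was not measured in these samples, so neither the labelled cell types nor the loss of the Tet genes could be checked against marker levels.

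Of the 9 genes, 7 matched a RefSeq promoter entry on GRCm38.p6, and the 250 bases upstream of the start differed widely in CpG. Ppia, which encodes cyclophilin A, held 38 CpG sites there, more than 98.1% of the 32841 promoters in the table. Polr2a, which encodes the largest subunit of RNA polymerase II, held 23 (more than 86.7%) and Sdha 21 (more than 83.6%). Tbp held 11, Gapdh and B2m held 8 each and Gusb held 3, where the median promoter held 6. Ppia and Polr2a are shown because the windows holding their starts were almost free of methylation, and B2m and Gusb because theirs were the most methylated of the 7. The start windows of Gapdh and Tbp were also almost free, with highest values of 1.13% and 2.54%, against 3.66% for Polr2a. Gapdh held as few CpG sites as B2m, so the sequences shown do not stand for all 7. The 250 bases do not always lie in the start window. Most of those of Polr2a lie in the next window, of 644 bp, with a highest value of 1.45%. The upstream part of the Ppia sequence lies in a window of 1816 bp that reached 22.4%. Most of the bases of Sdha lie in a window of 3344 bp that reached 25.2%. Each sequence is taken from RefSeq (GRCm38.p6), written from 5′ to 3′ on the strand of the gene and ends at the base before the start, and capitals mark CpG sites. They lie at chr11:6415617-6415866 on the + strand (Ppia), chr11:69758634-69758883 on the - strand (Polr2a), chr2:122147437-122147686 on the + strand (B2m) and chr5:130003050-130003299 on the - strand (Gusb).
Ppia: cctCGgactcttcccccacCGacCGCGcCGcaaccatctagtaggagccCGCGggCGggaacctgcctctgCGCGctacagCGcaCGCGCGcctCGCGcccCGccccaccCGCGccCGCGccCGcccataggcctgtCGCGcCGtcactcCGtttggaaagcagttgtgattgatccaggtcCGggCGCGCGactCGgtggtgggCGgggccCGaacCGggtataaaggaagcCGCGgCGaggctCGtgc
Polr2a: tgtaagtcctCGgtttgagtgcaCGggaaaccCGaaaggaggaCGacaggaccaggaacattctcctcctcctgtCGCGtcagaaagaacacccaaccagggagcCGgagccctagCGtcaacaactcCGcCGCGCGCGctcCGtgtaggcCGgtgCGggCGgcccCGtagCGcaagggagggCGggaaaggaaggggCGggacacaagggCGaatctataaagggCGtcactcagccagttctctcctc
B2m: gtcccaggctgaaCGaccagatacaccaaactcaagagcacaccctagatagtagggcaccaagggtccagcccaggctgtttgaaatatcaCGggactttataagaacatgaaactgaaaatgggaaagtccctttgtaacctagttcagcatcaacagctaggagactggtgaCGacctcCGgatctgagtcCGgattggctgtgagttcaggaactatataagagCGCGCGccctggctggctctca
Gusb: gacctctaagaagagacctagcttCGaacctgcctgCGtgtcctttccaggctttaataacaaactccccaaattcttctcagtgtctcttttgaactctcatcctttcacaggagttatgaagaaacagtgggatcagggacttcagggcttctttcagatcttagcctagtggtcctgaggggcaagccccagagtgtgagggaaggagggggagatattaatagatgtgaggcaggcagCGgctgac

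The sequence TATAAA was found on either strand upstream of Polr2a, Ppia and B2m, and in 12.4% of all promoters of that length. CCAAT was found upstream of B2m and Sdha and in 33.9% of all, and GGGCGG upstream of Polr2a, Tbp and Ppia and in 32.7% of all. None of these 3 motifs lies within another, and a match describes the letters only.

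The CpG-densest windows of these genes held almost no methylation in any line on any day. There were 11 windows under 1 kb, in 6 genes, and the highest of their 297 values was 2.54%, with 172 values of exactly 0. These lengths, under 1 kb, 1 to 3 kb and over 3 kb, were set after the data were seen. Counting all lengths, 13 of the 72 windows (18.1%) stayed below 5% in all 27 libraries, against 2.89% of all windows. Within a length the members were nearer to the rest: 11 of 11 windows under 1 kb stayed below 5%, against 72.4% of all such windows, 2 of 23 windows of 1 to 3 kb, against 1.91%, and 0 of 38 longer ones, against 0.00162%. Ywhaz held 4 of the low windows over 1779 bp, Polr2a 2 over 2190 bp, Gapdh 2 over 1951 bp, Ppia 2 over 920 bp, Actb 2 over 894 bp and Tbp 1 over 886 bp. Gusb, B2m and Sdha held none.

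**Figure D1:**
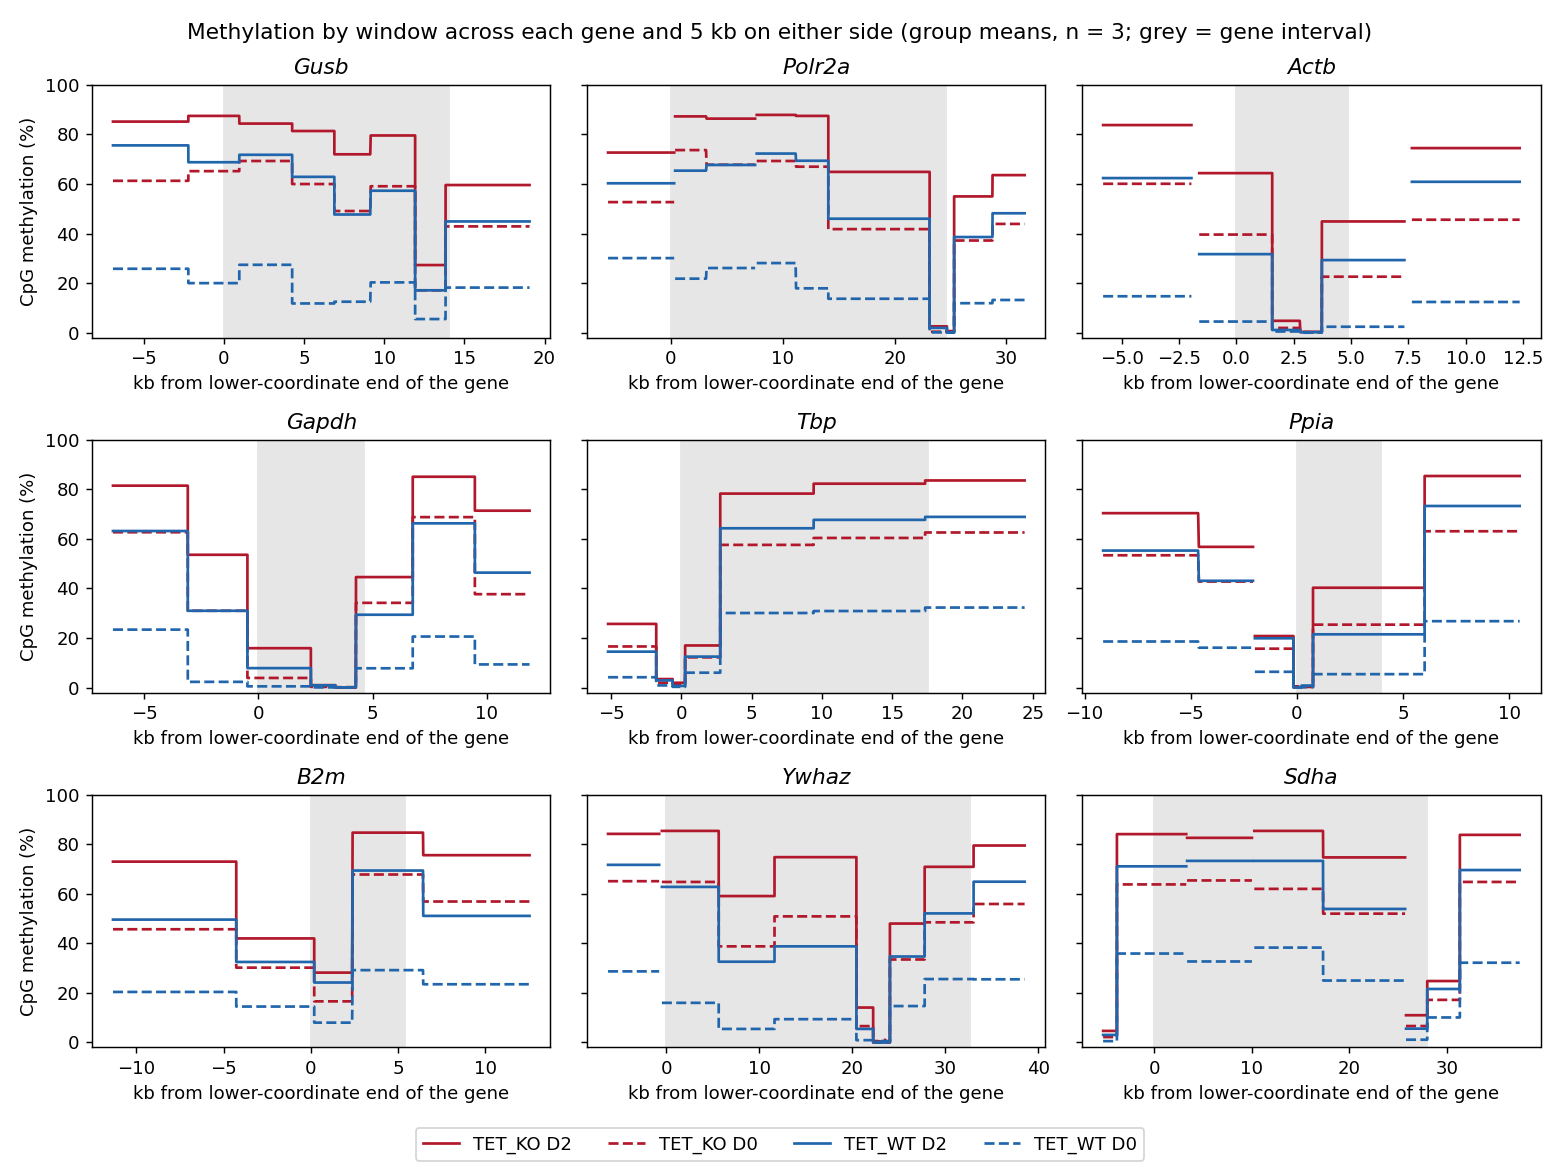
Methylation in percent (y axis) of each window along the 9 genes, against distance in kb from the lower-coordinate end of the gene (x axis), as means of 3 libraries for TET_KO (red) and TET_WT (blue) on D2 (solid) and D0 (dashed), with the gene interval in grey. The lines meet near 0% in a short stretch of Polr2a, Actb, Gapdh, Tbp, Ppia and Ywhaz and lie apart over most longer windows. The shortest window of Gusb averaged 27.3% in TET_KO on D2 and that of B2m 28.2%.

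At Ppia (chr11:6415867-6419817), the start lay in a window of 379 bp. It read 0.427%, 1.06% and 0% in TET_KO on D0, against 0.538%, 0% and 0% in TET_WT on D0, and its highest value over the 27 libraries was 1.06%. The groups overlapped, and the difference was 0.318 ± 0.343 points (SE, limma, Benjamini-Hochberg adjusted p = 0.37 over all windows). At Polr2a (chr11:69733997-69758633), the start lay in a window of 1546 bp that read 2.3%, 2.75% and 2.64% in TET_KO on D2, 2.94%, 1.89% and 3.66% in DNMT_WT on D2 and 1.02%, 3.43% and 1.35% in TET_WT on D2. These 3 groups overlapped. Tbp (chr17:15499888-15517427) encodes the TATA-binding protein of the transcription machinery, and its start window of 886 bp averaged 1.95 ± 0.231% in TET_KO on D2, against 0.664 ± 0.479% in TET_WT on D2 (SD, n = 3 each).

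Actb (chr5:142903115-142907976), which encodes the cytoskeletal protein beta-actin, and Ywhaz (chr15:36770261-36802984), which encodes the signalling adaptor 14-3-3 zeta, had their densest windows inside the annotated interval and not at its ends. The 411 bp window of Actb read 0.833%, 0% and 0% in TET_KO on D2, against 0.532%, 0% and 0% in TET_WT on D2. The 377 bp window of Ywhaz read 0%, 0.694% and 0.375% in TET_KO on D2, against 0%, 0% and 0.663% in TET_WT on D2. The groups overlapped at both windows. In Gapdh (chr6:125161852-125166467), which encodes a glycolytic enzyme, the start of the promoter entry lay inside the interval, in a window of 881 bp. That window was 0% in all 3 TET_KO libraries on D2, against 0.269%, 0% and 0% in TET_WT on D2. The upstream end of the Gapdh interval lay in another window, of 2483 bp, which is described further on.

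The starts of Sdha, Gusb and B2m lay in windows that did not stay below 5%. Sdha (chr13:74322255-74350240) encodes the flavoprotein subunit of succinate dehydrogenase, and its start window of 2178 bp read 6.53%, 7.21% and 6.17% in TET_KO on D0, against 1.44%, 1.15% and 0.808% in TET_WT on D0. The groups did not overlap, and the difference was 5.50 ± 0.684 points (SE, limma, adjusted p = 1.31e-08), under the 10 points required for a call here. Gusb (chr5:129989011-130003049) encodes the lysosomal enzyme beta-glucuronidase, and its start lay in a window of 5235 bp that read 39.5%, 41.3% and 47.9% in TET_KO on D0, against 16.4%, 20.7% and 17.6% in TET_WT on D0, a difference of 24.6 ± 2.17 points (adjusted p = 1.21e-11). B2m (chr2:122147687-122153082) encodes beta-2-microglobulin, the light chain of MHC class I molecules. Its start lay in a window of 4472 bp that read 26.4%, 31.4% and 32.7% in TET_KO on D0, against 12.4%, 15.3% and 15.8% in TET_WT on D0. That was 15.7 ± 1.74 points higher (adjusted p = 1.47e-09), without overlap of the groups. A start window of this length averages the start with several kb around it, so what lies at the start itself cannot be read from it.

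**Figure D2:**
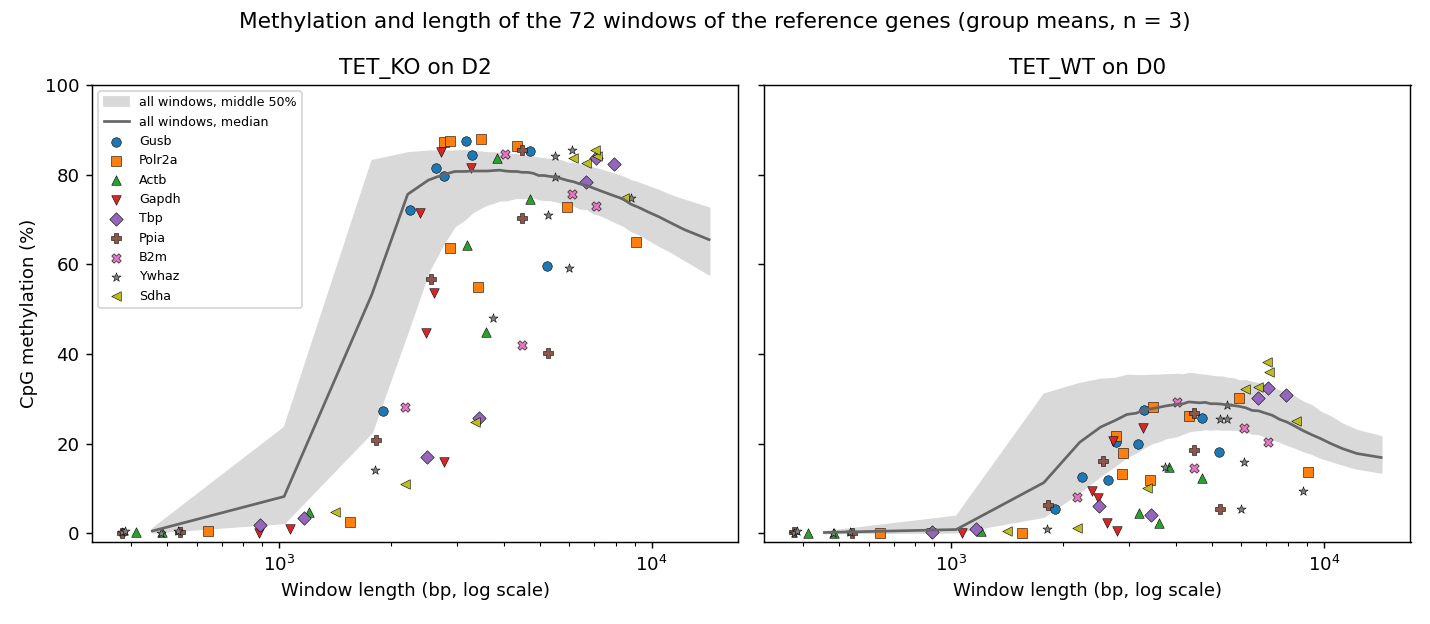
Methylation in percent (y axis) of the 72 windows against window length in bp on a log axis (x axis), as means of 3 libraries, for TET_KO on D2 (left) and TET_WT on D0 (right), with the median and the middle 50% of all windows of the same length in grey. Windows under 1 kb lie near 0% in both groups, and in TET_KO on D2 windows over 3 kb reach from 24.8% to 87.9%.

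Windows of 1 to 3 kb in these genes had a lower median than all windows of that length. In TET_KO on D2 the 23 windows had a median of 28.2%, between 0.967% and 87.5%, against a median of 75.3% over all such windows, whose middle 50% ran from 39.7% to 84.6%. In TET_WT on D0 their median was 6.37%, against 20.4% over all. In these groups windows over 3 kb lay close to the rest. Their median was 77.0% in TET_KO on D2, against 77.5% over all, and 23.5% in TET_WT on D0, against 26.2% over all. That did not hold in every group: on DNMT_WT D1 the 38 long windows had a median of 20.5%, against 13% over all. The middle 50% of all long windows ran from 6.57% to 19.9% there. These are descriptions with no test of the list.

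Outside the dense windows, TET_KO had more methylation than TET_WT on every day. To be called, a window, a dense end or a gene body had to differ by 10 percentage points or more, with an adjusted p (limma, Benjamini-Hochberg) below 0.05, so a window that stays below 5% cannot be called. On D0, 49 of the 72 windows were higher in TET_KO and 0 lower, where 92.9% of all windows were called higher. On D1 the count was 49 (92.6% of all windows) and on D2 it was 46 (84.3%). The members' share lay below that of all windows on each day. By length, 0 of 11 windows under 1 kb were higher on D0, against 4.69% of all such windows, 12 of 23 of 1 to 3 kb, against 81.1%, and 37 of 38 longer ones, against 98.6%. On D2 the counts were 0 (4.04% of all), 12 (67.0%) and 34 (90.5%). The library medians differed as well: TET_KO lay above TET_WT by 30.4 points on D0, by 30.3 a day later and by 20.7 at the end. With each library centred on its own median, 11 windows were higher and 29 lower in TET_KO on D0. The D1 split was 8 higher and 28 lower, and the D2 split 2 higher and 27 lower. Centring subtracts the median shift, so a window near 0% in both lines becomes lower by construction. Before centring, 0 windows were lower at any size on any of these days. The share of all windows was not counted under centring.

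The member window that differed most on D0 lay in Polr2a. It read 74.0%, 70.6% and 76.6% in TET_KO, against 21.3%, 20.2% and 23.9% in TET_WT, and the difference was 51.9 ± 2.39 points (SE, limma, adjusted p = 9.19e-17). The groups were far apart there. In Ywhaz a window of 8805 bp read 51.4%, 51.8% and 49.6% in TET_KO on D0, against 8.47%, 10.3% and 9.47% in TET_WT on D0. In Gusb a window of 2632 bp read 56.4%, 64.1% and 59.4% in TET_KO on D0, against 13.6%, 12.3% and 9.61% in TET_WT on D0. No value of one group reached the other in these windows. The longer window of Ppia behind its island read 26.3%, 26.0% and 23.8% in TET_KO on D0, against 5.53%, 4.07% and 6.67% in TET_WT on D0.

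**Figure D3:**
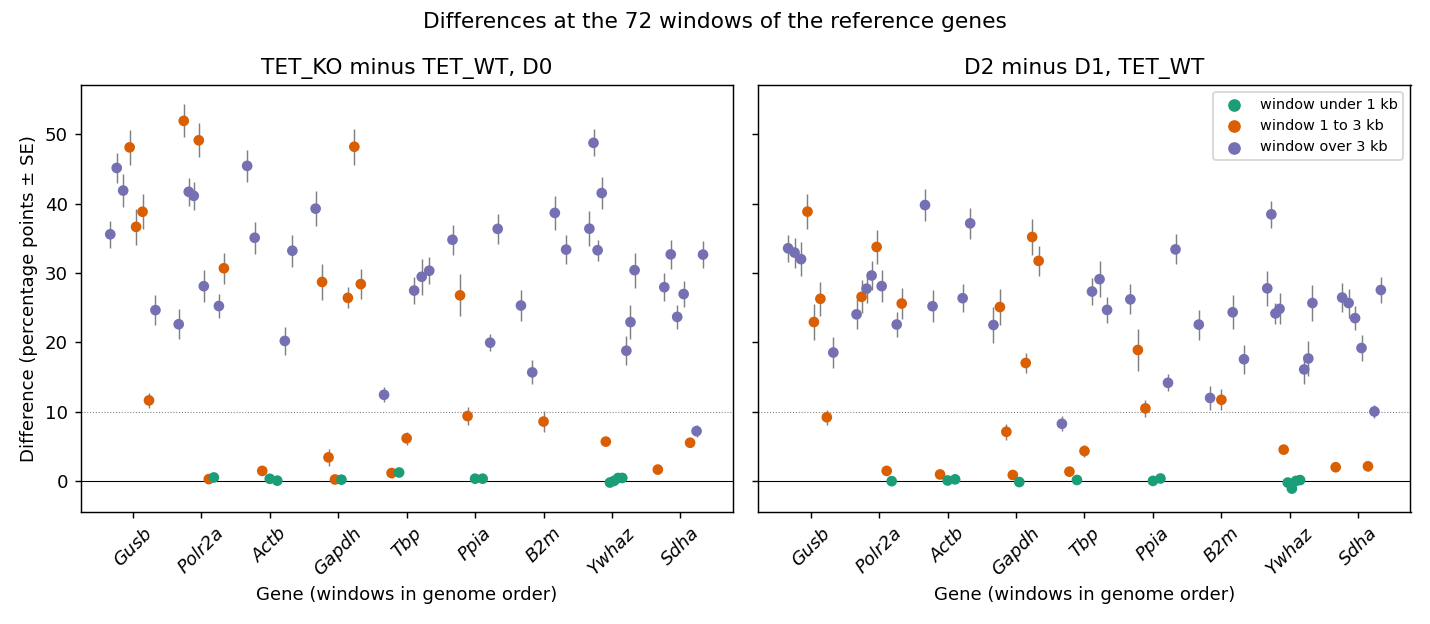
Differences in percentage points with their SE (y axis) at the 72 windows, by gene and in genome order (x axis), for TET_KO minus TET_WT on D0 (left) and D2 minus D1 in TET_WT (right), coloured by window length, with a dotted line at 10 points. The 11 windows under 1 kb lie between -1.11 and 1.21 points in both panels, and all 38 windows over 3 kb lie above 0.

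For each gene a body value was set beside a dense end. The dense end was whichever end window of the interval was shorter, if it spanned at most 3000 bp. The body was the mean of the other windows that overlapped the gene, each counted equally however little of it lay inside. The start windows of Gusb and B2m, which lie mostly outside the gene, are thus part of their bodies. Polr2a, Gapdh, Tbp, Ppia and Sdha had a dense end, as did 12238 genes in all, and Gusb, Actb, B2m and Ywhaz had none. In Gapdh, on the - strand, the rule chose a window of 2483 bp that holds the upstream end of the interval. The start of its promoter entry lies further inside, in another window. The chosen window also overlaps Ncapd2, a condensin gene. Body means of Actb, Ywhaz, Gapdh and Ppia take in windows under 1 kb.

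The 9 gene bodies spread widely. In TET_KO on D0, Polr2a averaged 62.0 ± 2.20% and Sdha 60.8 ± 1.75%, followed by Gusb at 51.8 ± 0.517%, Tbp at 48.2 ± 2.35%, B2m at 38.2 ± 0.552%, Ywhaz at 24.5 ± 0.604%, Actb at 12.9 ± 0.694%, Ppia at 12.9 ± 0.968% and Gapdh at 1.45 ± 0.208% (SD, n = 3). Polr2a and Sdha, as well as Actb and Ppia, did not differ beyond their spread in that order. The median of the 21344 gene bodies was 50.6% in that group. Only 0.178% of gene bodies lay below Gapdh, 1.95% below Actb and 1.95% below Ppia, while 92.9% lay below Polr2a. In TET_WT on D0, Sdha led with 33 ± 1.97%, then Tbp with 24.8 ± 0.569%, Polr2a with 22.9 ± 0.213%, B2m with 17.2 ± 2.16% and Gusb with 16.5 ± 0.615%, the last pair within their spread. There 91.2% of gene bodies lay below Sdha, 51.6% below Polr2a and 24.8% below Gusb, so the order of Polr2a and Tbp was not that of TET_KO. Without windows under 1 kb, a choice made after the data were seen, the mean of Actb was 21.4% in TET_KO on D0, against 2.46% in TET_WT on D0, that of Ppia 25.4% against 5.42%, that of Ywhaz 40.5% against 12% and that of Gapdh 2.09% against 0.293%.

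**Figure D4:**
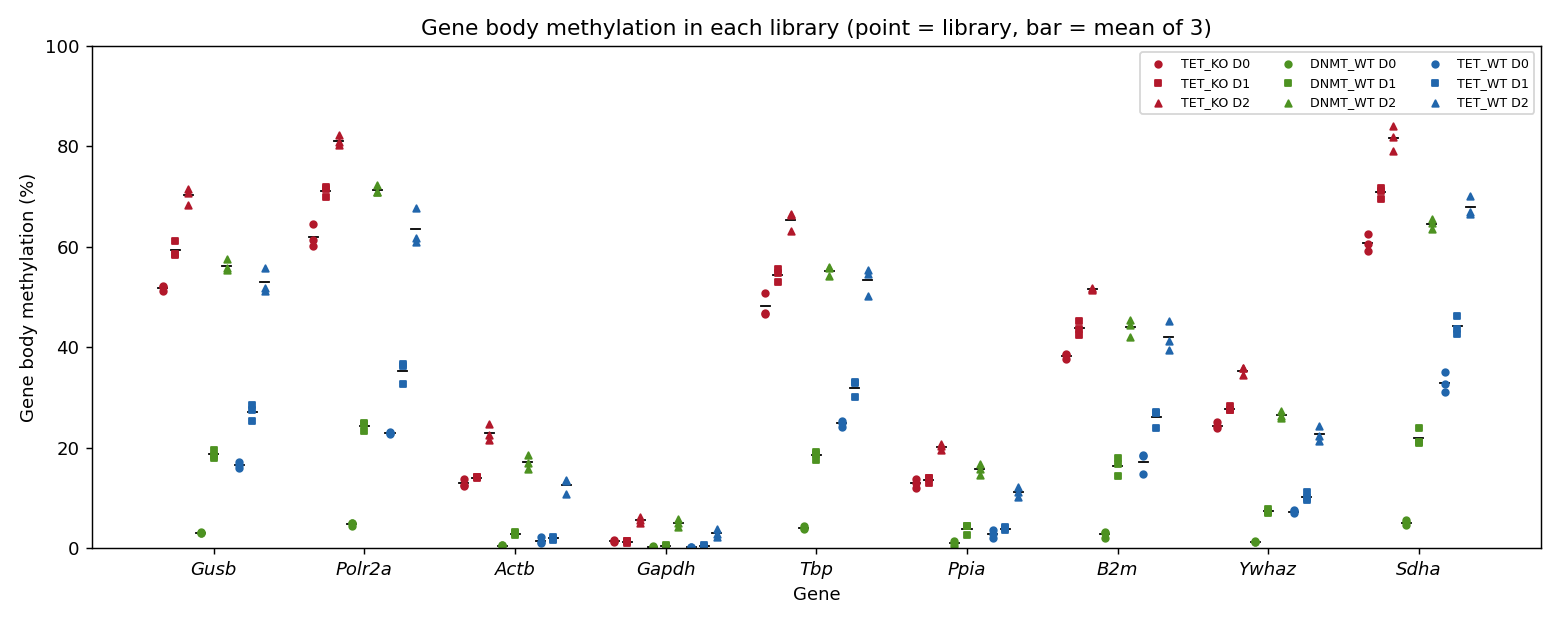
Gene body methylation in percent (y axis) of the 9 genes (x axis) in each of the 27 libraries, for TET_KO (red), DNMT_WT (green) and TET_WT (blue), with circles for D0, squares for D1 and triangles for D2 and a bar at the mean of 3 libraries. Libraries of a group lie close together, and Gapdh reaches at most 6.25% in any library.

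On D0, 8 of the 9 gene bodies were higher in TET_KO than in TET_WT, where 97.1% of all gene bodies were. Polr2a read 61.4%, 60.2% and 64.5% in TET_KO, against 22.7%, 23.0% and 23.1% in TET_WT, and was 39.1 ± 1.38 points higher (SE, limma, adjusted p = 4.04e-19). Gusb followed with 35.3 ± 1.17 points, Sdha with 27.8 ± 1.37, Tbp with 23.3 ± 1.30, B2m with 21.0 ± 1.38, Ywhaz with 17.2 ± 0.742, Actb with 11.4 ± 0.767 and Ppia with 10.1 ± 0.668. The libraries of TET_KO and TET_WT did not overlap at any of these bodies. Ppia fell short of 10 points without replicate 1 of TET_KO on D0 (9.68) or replicate 2 of TET_WT on D0 (9.75). The body of Gapdh read 1.39%, 1.69% and 1.28% in TET_KO on D0, against 0.130%, 0.198% and 0.259% in TET_WT on D0, a difference of 1.26 ± 0.412 points (adjusted p = 0.00535) that was under 10 points. Centred on library medians, 0 bodies were higher and 4 were lower on D0, and 0 were higher and 4 lower on D2. A body that differs by less than the library medians turns lower by the subtraction alone.

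By D2 the difference between the lines was smaller than on D0 at 5 of the 9 bodies by the test of the gain given further on (Polr2a, Gusb, Sdha, Tbp and B2m). Of the 9 bodies, 6 were higher in TET_KO, where 90.4% of all gene bodies were: Polr2a by 17.6 ± 1.38 points, Gusb by 17.3 ± 1.17, Sdha by 13.8 ± 1.37, Ywhaz by 12.6 ± 0.742, Tbp by 11.9 ± 1.30 and Actb by 10.4 ± 0.767. Actb missed 10 points without replicate 1 of TET_KO on D2 (9.52) or replicate 3 of TET_WT on D2 (9.52). B2m stood at 9.63 ± 1.38 points and Ppia at 9.11 ± 0.668 points, just under the limit, and Gapdh at 2.67 ± 0.412 points. B2m passed the limit without replicate 2 of TET_WT on D2, with 11.3 points.

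Among the dense ends, 1 of 5 was higher in TET_KO on D0, where 28.9% of all dense ends were, and 1 of 5 on D2, where 20.8% were. Both counts are Gapdh, whose window beyond the island read 35.6%, 32.3% and 34.7% in TET_KO on D0, against 6.13%, 9.85% and 7.40% in TET_WT on D0, a difference of 26.4 ± 1.5 points (adjusted p = 2.20e-15). The other four differed by 0.260 points (Polr2a), 0.318 (Ppia), 1.21 (Tbp) and 5.50 (Sdha) on D0. With the window that holds the start in place of the shorter end, Gusb and B2m were higher on D0 and Gapdh was not, at 0.175 ± 0.354 points. With the shortest window anywhere in the gene, Gusb was the 1 of 9 that was higher, by 11.6 ± 1.05 points. Centred on library medians, 4 of 5 dense ends were lower in TET_KO on D0 and 4 on D2. Ends that differ little between the lines turn lower by that subtraction alone, so these calls show no loss. Before centring, 0 of 5 were lower at any size on either day.

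The body and the dense end of the same gene moved by different amounts. On D0 the body minus the dense end was higher in TET_KO for 3 of 5 genes, where 76.2% of genes were, by 38.8 ± 1.22 points in Polr2a, 22.3 ± 1.52 in Sdha and 22.1 ± 1.34 in Tbp. It was lower for 1, where 4.38% of genes were: Gapdh, by -25.2 ± 1.80 points (adjusted p = 1.03e-12), with its body value averaging low windows and its end window lying beyond them. Ppia stood at 9.81 ± 1.01 points. On D2 the difference was higher for 2 genes (57.8% of all) and lower for Gapdh (2.96% of all), and it was higher for 1 gene without replicate 3 of TET_WT on D2.

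Over the days, methylation rose at the long windows of these genes in all 3 lines. In TET_KO, 10 of 72 windows rose by D1 (20.1% of all windows) and 32 between D1 and D2 (65.8%). In DNMT_WT, 36 rose by D1 (49.0%) and 54 between D1 and D2 (94.9%). In TET_WT, 22 rose by D1 (27.6%) and 50 between D1 and D2 (88.0%). No window fell by 10 points in any of these steps, a limit that windows near 0% cannot reach. At any size 2 windows were lower at an adjusted p under 0.05 (limma), both under 1 kb and in Ywhaz. They changed by -1.03 points between D0 and D1 in TET_KO and by -1.11 points between D1 and D2 in TET_WT. The window that fell in TET_WT, of 377 bp, had first risen by 1.33 ± 0.509 points by D1 (SE, limma, adjusted p = 0.0198). It averaged 0%, 1.33% and 0.221% in TET_WT on D0, D1 and D2. Between D1 and D2 in TET_WT, 0 of 11 windows under 1 kb rose (1.56% of all such windows), 13 of 23 of 1 to 3 kb (75.4%) and 37 of 38 longer ones (93.8%). The count of 10 in TET_KO was 17 without replicate 3 of TET_KO on D0. Centred on library medians, 0 windows changed by D1 in TET_KO and in TET_WT. In centred counts, a window that rose less than the library medians appears as lower. In DNMT_WT by D1, 8 were higher and 9 lower. Between D1 and D2, 1 was higher and 15 lower in TET_KO, 4 higher and 33 lower in DNMT_WT, and 9 higher and 26 lower in TET_WT, where the library medians had risen by 12.8, 40.5 and 22.4 points.

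In TET_WT the body of Polr2a averaged 22.9%, 35.2% and 63.5% on D0, D1 and D2, and that of Gusb 16.5%, 27.1% and 52.9%. Between D1 and D2, 7 of 9 bodies rose, where 92.2% of all gene bodies did: Polr2a by 28.3 ± 1.38 points, Gusb by 25.8 ± 1.17, Sdha by 23.7 ± 1.37, Tbp by 21.3 ± 1.30, B2m by 16.0 ± 1.38, Ywhaz by 12.4 ± 0.742 and Actb by 10.6 ± 0.767. Ppia gained 7.25 ± 0.668 points and Gapdh 2.59 ± 0.412. Centred on library medians, 0 bodies were higher and 3 lower. Those 3 had risen, but by less than the library medians, and a dense end near 0% likewise turns lower by centring. The body of Actb stayed low until D1, at 1.49% on D0 and 1.96% on D1, and stood at 12.5% on D2. Of the dense ends, 1 of 5 rose in this step (23.7% of all), that of Gapdh by 17.0 ± 1.5 points, and 4 were lower with libraries centred. The body rose more than the dense end in 3 genes (69.3% of all), and the dense end more than the body in Gapdh (1.59% of all).

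A window of 2776 bp at the lower-coordinate end of Gapdh, which also overlaps Iffo1, was the highest of the windows in its body. In TET_KO it averaged 3.89%, 3.68% and 15.9% on D0, D1 and D2, in DNMT_WT 0.416%, 0.893% and 13.4%, and in TET_WT 0.5%, 0.765% and 7.85%. Between D1 and D2 it rose by 12.2 ± 1.19 points in TET_KO (SE, limma, adjusted p = 1.89e-09) and by 12.5 ± 1.19 points in DNMT_WT (adjusted p = 4.71e-11). In TET_WT the step was 7.09 ± 1.19 points (adjusted p = 2.71e-06), under 10 points. The next window, of 1070 bp, read 1.40%, 0% and 1.5% in TET_KO on D2, against 0.536%, 0.906% and 1.32% in TET_WT on D2, with overlap.

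The gain from D0 to D2 was smaller in TET_KO than in TET_WT at 31 of the 72 windows and larger at 0, where it was smaller at 44.2% of all windows. With libraries centred on their medians, it was larger at 5 and smaller at 16. It was smaller at 5 of 9 gene bodies (51.6% of all), by -21.5 ± 1.96 points in Polr2a, -17.9 ± 1.65 in Gusb, -14.0 ± 1.93 in Sdha, -11.4 ± 1.84 in Tbp and -11.3 ± 1.95 in B2m. Without replicate 2 of TET_WT on D2, B2m stood at -9.69 points and was no longer called. Centred, 1 body had a larger gain in TET_KO (Gapdh, 11.1 points) and 1 a smaller one (Polr2a, -11.9 points). Most of the Gapdh value is the subtracted median shift of -9.64 points, as its gain differed by 1.41 points before centring. Actb (-0.981 ± 1.08), Ppia (-1.02 ± 0.945), Ywhaz (-4.52 ± 1.05) and Gapdh (1.41 ± 0.582) were not called. Of the dense ends, 1 of 5 gained less in TET_KO (11.2% of all), that of Gapdh by -11.3 ± 2.12 points. With libraries centred, no dense end gained less, so that call was lost. By the same subtraction, 1 other dense end was then called as gaining more. For body minus dense end, the gain of TET_KO minus that of TET_WT was positive in Gapdh (12.7 ± 2.55 points, as in 1.80% of all genes), where the value fell less in TET_KO, and negative in Polr2a, Sdha and Tbp (46.4% of all).

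DNMT_WT began lower than TET_WT at these genes and by D2 was higher at some windows and lower at 1. These comparisons share their TET_WT libraries with those of TET_KO. On D0, 36 of 72 windows were lower in DNMT_WT (88.9% of all windows) and on D1 27 were (85.6%), with none higher. On D2, 8 were higher (1.78% of all) and 1 lower (10.5%). The 8 were 3 windows of Polr2a, 2 of Ywhaz and 1 each of Gusb, Actb and Gapdh. The window of Ywhaz of 8805 bp averaged 57.6 ± 4.27% in DNMT_WT on D2, against 38.8 ± 5.04% in TET_WT on D2 (SD, n = 3 each), and was 18.8 ± 2.25 points higher (limma, adjusted p = 3.93e-07). A window of Actb that also overlaps the long non-coding RNA gene Gm38733 read 55.4%, 42.7% and 45.7% in DNMT_WT on D2, against 35.9%, 32.3% and 27.1% in TET_WT on D2, without overlap. The 1 lower window lay in Sdha and averaged 61.9 ± 1.74%, against 73.3 ± 3.56%. Without replicate 2 of TET_WT on D2 that window was not called. Centred on library medians, 41 windows were higher in DNMT_WT at D0. The counts at D1 and D2 were 45 and 12, and none was lower. On D0 and D1, windows near 0% in both lines become higher by this subtraction alone. Before centring, 0 windows were higher at any size on D0. The library medians differed by -22.9, -21.0 and -2.97 points over the 3 days. The gain from D0 to D2 was larger in DNMT_WT at 43 windows (82.7% of all) and smaller at 0. With libraries centred it was larger at 1 and smaller at 29, where windows near 0% in both lines again turn by the subtraction.

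The other 48 widely expressed genes that were listed, all measured, were counted in the same way. Of their 48 bodies, 43 were higher in TET_KO on D0, where 97.1% of all gene bodies were. Their median difference was 26.0 points, against 21.0 over the 9 genes and 26.6 over all. Of their 41 dense ends, 5 were higher, where 28.9% of all dense ends were. The median difference of these ends was 0.258 points, against 1.21 over the 5 dense ends described above and 2.87 over all. On D2 the counts were 39 bodies (90.4% of all) and 1 dense end (20.8% of all). Between D1 and D2 in TET_WT, 43 bodies (92.2% of all) and 3 dense ends (23.7% of all) rose. In TET_KO on D2 their dense ends were highest in Aldoa (34.5%, 2134 bp), Tfrc (26.0%, 2756 bp) and Psmb4 (25.1%, 2799 bp). They were lowest in Rer1 (0%, 400 bp), Eif4a2 (0.113%, 450 bp) and Polr2b (0.116%, 616 bp). The high ends were thus longer windows than the low ones, so this order does not compare genes at like CpG density. Polr2b and Polr2c encode further subunits of RNA polymerase II, and Polr2c stood at 0.953%. Among the subunits of succinate dehydrogenase, the dense end of Sdhb stood at 0.257% (570 bp) and that of Sdhd at 0.576% (656 bp). That of Sdhc stood at 22.9% (2776 bp), against 11% for Sdha (2178 bp), so these windows differ in length as well. The dense end of Actg1, which encodes gamma-actin, stood at 0.283% and its body at 35.7%, against 22.9% for the body of Actb.

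For each gene, the bodies nearest to it over the 9 group means were found by the root mean square difference. The nearest body to that of Gapdh was Rpl13a (0.626 points), to Actb Rpl28 (0.739) and to Ppia Rpl38 (0.769), all 3 of which encode ribosomal proteins. Those second in distance were Tmsb10 (0.679 points), Rbm3 (0.865) and Hnrnpa3 (0.780). To Polr2a the nearest were Rpain (0.935 points) and Brix1 (1.21), to Tbp Nkrf (0.566) and Zfp362 (0.605), and to B2m Ppp1r10 (0.792) and Tfam (0.810). To Ywhaz they were Kank3 (0.510) and Cyb5r1 (0.520), to Sdha Clcn1 (0.711) and Wasf3 (0.763), and to Gusb Pias2 (0.634) and Ticrr (0.675). Nearness says only that the averages lie close.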

How the data were processed

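DNA methylation was measured by whole-genome bisulfite sequencing. Trim Galore 0.6.6, cutadapt 2.3, Bismark 0.23.0 and the build GRCm38 are named, per the submitters' processing notes. The authors deposited a percent of methylation for each library and window, and the coverage filter and the filling of windows are not given in the sources used here. The table held 453245 windows, 453239 of them nuclear, and the 444250 with a value in every library were tested. No counts were given, so no depth or counting interval can be stated. Gapdh, Actb and Ppia have processed pseudogenes, so reads of near-identical copies could be placed wrongly there, and a window shared with a neighbouring gene counts for both.

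Percentages were tested with limma 3.58.1 in R 4.3.3 (lmFit and eBayes with trend, 1 mean for each of the 9 groups, 18 residual degrees of freedom, median residual SD 2.60 points for windows), with Benjamini-Hochberg adjustment over all windows or all genes. A call needed an adjusted p under 0.05 and 10 points. Windows were those overlapping a RefSeq interval (GRCm38.p6) with 5 kb on either side, and dense ends were limited to 3000 bp. Strand came from the promoter table. The fit was tested on simulated data. Tables and figures used Python 3.11.15, pandas 2.3.3, numpy 2.4.6 and matplotlib 3.10.9. All 9 genes are named. For each, the 2 nearest gene bodies that share no window with it are named, as are the 3 highest and 3 lowest dense ends of the other list and partners or paralogs of the genes, and neighbours that overlap a described window. The genes, lists and tests were chosen with earlier results of these data known. The labels do not say that replicates were separate cultures, so p-values measure only the spread between these libraries. Replicate numbers were not used as pairs, and no pair of libraries shared over 0.0110% of values other than 0 and 100. Alternatives were the scale, the size limit, missing values, the groups in the fit, the variance trend, the replicate block, leaving out each library, the flanks, the end window and the windows of the body.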

Additional observations from a re-analysis of the deposited data

Results flagged for a closer look

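The gain from D0 to D2 differed between TET_KO and TET_WT by a test of the difference itself (limma, Benjamini-Hochberg adjusted p over all genes or windows) at 5 gene bodies and 1 dense end. The value, TET_KO minus TET_WT, was -21.5 points in the body of Polr2a (adjusted p = 2.63e-09), -17.9 in Gusb (2.79e-09), -14.0 in Sdha (4.44e-07), -11.4 in Tbp (4.17e-06) and -11.3 in B2m (9.74e-06). At the dense end of Gapdh it was -11.3 points (6.89e-05). The library medians differed by -9.64 points in the same contrast. With libraries centred on them, the Gapdh dense end was no longer called. Of the bodies, Polr2a was called at -11.9 points, and Gusb (-8.30), Sdha (-4.37), Tbp (-1.76) and B2m (-1.69) were not. All 5 bodies stood higher in TET_KO on D0, with 62.0% against 22.9% in TET_WT for Polr2a. Of all gene bodies, 51.6% were called in that direction.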

How the results depend on the processing

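The depth behind a percentage is not known, windows average several kb, and the 10-point limit keeps low windows from being called. Calls of member windows on the logit scale, without trend, with only the groups compared, and with windows of at least 2 values per group stayed within 1.5 times the main counts. The replicate block left every count of calls as it was, for example 49 windows for TET_KO minus TET_WT on D0, and changed no call of a gene body. Same-numbered libraries of different groups deviated from their group means with correlations of -0.0549 to 0.0570 over 108 pairs, and 9 of 27 libraries correlated best with their own number.

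Centring each library on its median gave 40, 36 and 29 window calls for TET_KO minus TET_WT on D0, D1 and D2, 0 and 16 for the steps to D1 and D2 in TET_KO, 17 and 37 in DNMT_WT, 0 and 35 in TET_WT, 41, 45 and 12 for DNMT_WT minus TET_WT by day, and 21 and 30 for the gains of TET_KO and DNMT_WT less that of TET_WT. It gave 4, 4 and 2 gene bodies and 4, 4 and 1 dense ends for TET_KO minus TET_WT on D0 and D2 and the gain, and 3 bodies and 4 dense ends for D2 minus D1 in TET_WT. The 1 dense end called for the centred gain was higher in TET_KO and is not Gapdh, whose call was lost. Against the shift of the median, body differences changed sign. TET_KO minus TET_WT on D0 became -19.0 in Actb, -9.41 in B2m, -29.1 in Gapdh, -20.2 in Ppia, -2.56 in Sdha, -7.03 in Tbp and -13.2 in Ywhaz. On D2 it became -10.3, -11.1, -18.1, -11.6, -6.93, -8.79 and -8.10 in the same genes, -3.40 in Gusb and -3.14 in Polr2a. D2 minus D1 in TET_WT became -11.8 in Actb, -6.39 in B2m, -19.8 in Gapdh, -15.1 in Ppia, -1.04 in Tbp and -9.95 in Ywhaz, and the gain 8.66 in Actb, 8.62 in Ppia and 5.12 in Ywhaz. The construction removes the shift itself. A value near 0% in both groups therefore moves by the whole shift and can be called for that alone.

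A limit of 20 points left 13 windows for TET_KO minus TET_WT on D2, 0 and 3 in TET_KO, 11 for D1 in DNMT_WT, 0 for D1 in TET_WT, 19, 4 and 0 for DNMT_WT minus TET_WT, and 16 and 22 for the gains. It left 5, 0 and 1 bodies for TET_KO minus TET_WT on D0, D2 and the gain, 4 for the TET_WT step, and 0 dense ends on D2, in that step and for the gain. Any size gave 45 (44 higher and 1 lower) and 59 windows in TET_KO, 45 for D1 in TET_WT, 42 and 23 for DNMT_WT minus TET_WT on D1 and D2, 3 dense ends for each of D0, D2 and the TET_WT step, and 7 bodies for the gain. Without flanks, 49 windows remain, with 31, 31 and 29 calls for TET_KO minus TET_WT, 5 and 21 in TET_KO, 23 and 34 in DNMT_WT, 13 and 31 in TET_WT, 22 and 17 for DNMT_WT minus TET_WT on D0 and D1, and 19 and 28 for the gains.

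The window holding the start gave 2 calls on D0, 2 for the TET_WT step and 0 for the gain, and the shortest window in the gene 0 for the gain. Windows wholly inside the gene, which drop the edges and leave islands, gave 5 bodies on D0 and 3 for the gain. TET_KO minus TET_WT on D2 then was -0.0210 in Gapdh and -0.556 in Ppia, and the gain 0.718 in Actb and -0.211 in Gapdh. Leaving out 1 library at a time gave 7 to 17 windows for D1 in TET_KO, 6 to 11 for DNMT_WT minus TET_WT on D2 and 2 to 3 genes for body minus dense end on D2. Leaving out replicate 2 of TET_WT on D1 and D2 together, added after the data were seen, gave 8 windows for DNMT_WT minus TET_WT on D2. The cause of these changes was not tested beyond the construction stated.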

Other observations

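A window of 1168 bp beside Tbp overlaps Psmb1, a proteasome gene, and read 3.84%, 3.30% and 3.18% in TET_KO on D2, against 3.35%, 3.31% and 2.09% in TET_WT on D2. A window of 1414 bp beside Sdha overlaps Pdcd6 and read 4.27%, 5.84% and 3.89% in TET_KO on D2, against 2.21%, 4.26% and 2.68% in TET_WT on D2. The groups overlapped at both windows. The window of 3344 bp upstream of the start of Sdha overlaps Ccdc127 and read 25.1%, 25.2% and 24% in TET_KO on D2, against 22.6%, 22.7% and 19.5% in TET_WT on D2, without overlap. All 5 windows of B2m overlap the interval of Patl2.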
